A study of Homo sapiens with 6 samples.

Results

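The matrix metalloproteases (MMPs), the ADAM, ADAMTS and ADAMTS-like (ADAMTSL) genes and the tissue inhibitors of metalloproteases (TIMPs) were followed in MDA-MB-231 breast cancer cells that lack the kinases MRCKα, MRCKβ or both. Every gene of the deposited expression table whose symbol is one of these family names followed by a number, without a hyphen, was a member. This gave 59 of 17064 genes, with 17 MMPs, 16 ADAMs, 17 ADAMTSs, 5 ADAMTSLs and 4 TIMPs. The 41 members with at least 10 expected counts in any library are reported here. The other 18 never reached that level and had at most 9 counts in a library. They were MMP8, MMP9, MMP10, MMP13, MMP17, MMP23B, MMP25, MMP28, ADAM21, ADAM28, ADAM29, ADAM32, ADAM33, ADAMTS8, ADAMTS13, ADAMTS18, ADAMTS19 and ADAMTS20.

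All of these proteases hold or derive from a zinc-dependent catalytic domain and act outside the cell or at its surface. MMPs cut collagens and other proteins of the extracellular matrix, ADAMs are membrane proteins that release the outer part of growth factors and receptors, and ADAMTSs are secreted enzymes that trim procollagens and proteoglycans. ADAMTSL proteins share the accessory domains of the ADAMTSs but have no protease domain. TIMPs bind to the active site of MMPs and of some ADAMs and ADAMTSs and block it. Tumour cells that invade collagen, as MDA-MB-231 cells do, are known to use the membrane-anchored protease MMP14 for this.

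MDA-MB-231 is a human triple-negative breast cancer line taken from a metastatic site. Cells were transduced with the lentiviral vector lentiCRISPRv2 carrying guides against CDC42BPA (MRCKα KO), CDC42BPB (MRCKβ KO) or both genes (DKO), or with the empty vector, and selected with puromycin or blasticidin. Selected cells were used without clone picking, so each library comes from a mixed population. RNA was taken from subconfluent cultures grown without treatment, with 2 vector libraries from separate transductions, 1 library of MRCKα KO, 1 of MRCKβ KO, and 2 DKO libraries made with the guide 1 set and the guide 2 set. Which DKO library holds which guide set is not given in the sources used here.

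The totals lay between 10349898 and 10657857 expected counts, and 12911 to 13038 genes per library had at least 10. Transcripts of the targeted genes stayed present, with CDC42BPA between 23.3 and 36.4 FPKM (reads per length of transcript, scaled to the library total) and CDC42BPB between 23.4 and 30.3 FPKM in all 6 libraries, so RNA levels do not check the knockout labels. VIM, CD44, AXL and LDHB, which mark this line, summed to 2269 to 3015 FPKM. ESR1, PGR, ERBB3, CDH1 and EPCAM, low or absent in it, summed to 3.71 to 6.38 FPKM. Of 8 fibroblast markers 4 reached 10 counts, and their summed FPKM was 11.3 in vector 1, 3.75 in vector 2 and between 4.04 (DKO 2) and 7.29 (MRCKβ KO) in the knockout libraries. Leukocyte markers summed to 7.52 to 9.51 FPKM and endothelial markers to 2.22 to 3.78 FPKM.

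The start regions of 3 members are shown because only these had an unadjusted p under 0.05 in DKO. Sequences are from RefSeq on GRCh38.p14, from 250 bases before to 50 bases after the start, read 5′ to 3′ on the minus strand, on which all 3 genes lie. The ADAMTS6 window is chr5:65481871-65482170, that of TIMP4 is chr3:12158863-12159162 and that of ADAM8 is chr10:133276819-133277118. Capitals mark, in order, GGAATG, the letters TEAD factors bind, and TGACGTCA, the cyclic AMP response element.
ADAMTS6: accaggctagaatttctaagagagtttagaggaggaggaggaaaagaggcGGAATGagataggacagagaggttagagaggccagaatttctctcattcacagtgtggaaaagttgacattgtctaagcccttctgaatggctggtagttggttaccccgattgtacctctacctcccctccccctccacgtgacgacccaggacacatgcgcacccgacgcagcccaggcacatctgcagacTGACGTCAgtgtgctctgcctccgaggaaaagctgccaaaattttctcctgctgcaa
TIMP4: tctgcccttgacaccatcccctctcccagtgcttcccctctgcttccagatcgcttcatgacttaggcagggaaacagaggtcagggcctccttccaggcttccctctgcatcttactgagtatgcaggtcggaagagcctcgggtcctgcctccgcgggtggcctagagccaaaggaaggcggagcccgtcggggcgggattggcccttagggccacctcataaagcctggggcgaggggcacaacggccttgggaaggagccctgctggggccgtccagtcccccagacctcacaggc
ADAM8: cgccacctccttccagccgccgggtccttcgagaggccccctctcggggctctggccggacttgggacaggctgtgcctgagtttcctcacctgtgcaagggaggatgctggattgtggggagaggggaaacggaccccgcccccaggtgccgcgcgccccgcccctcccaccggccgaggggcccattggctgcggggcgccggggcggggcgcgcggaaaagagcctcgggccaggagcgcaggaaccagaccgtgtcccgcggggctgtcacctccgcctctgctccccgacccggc

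Only the ADAMTS6 window held a match. GGAATG lay at bases -200 to -195 from the start and TGACGTCA at bases -7 to 0, where 0 is the first transcribed base. Both strands were searched for these letters and for TGANTCA, which AP-1 binds, and TATAAA, a core promoter element. No searched motif overlaps another in these windows. TGACGTCA was added to the search after the sequence had been read. It occurred in 1.85% of 35116 promoter windows of the same length, against 14.0% for GGAATG, 7.71% for TGANTCA and 11.5% for TATAAA. Of the 41 reported members 28 matched the table. Among these, GGAATG was found in ADAM17, ADAMTS12 and ADAMTS6, TGANTCA in ADAMTS12 and TATAAA in ADAMTSL2.

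The family was led by its inhibitors. Per length, TIMP1 was the most abundant member, with a mean of 233 FPKM over the 6 libraries, followed by TIMP2 with 193 FPKM, TIMP3 with 129 FPKM, ADAM9 with 102 FPKM and MMP14 with 77.1 FPKM. Of the 41 reported members 10 had a mean of at least 10 FPKM, 26 of at least 1 FPKM and 15 less than 1 FPKM. TIMP2 differed by 1.40-fold and TIMP3 by 2.70-fold between the vector libraries, but TIMP1, TIMP2 and TIMP3 kept this order in all 6 libraries. In vector 2, TIMP3 with 67.0 FPKM lay below ADAM9 with 114 FPKM and MMP14 with 83.0 FPKM. The median reported member had a mean expected count of 98.5, against 318.5 for all 13805 genes with 10 counts, and 32 members had at least 10 counts in every library. All members together took 0.279% to 0.363% of the counts.

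**Figure D1:**
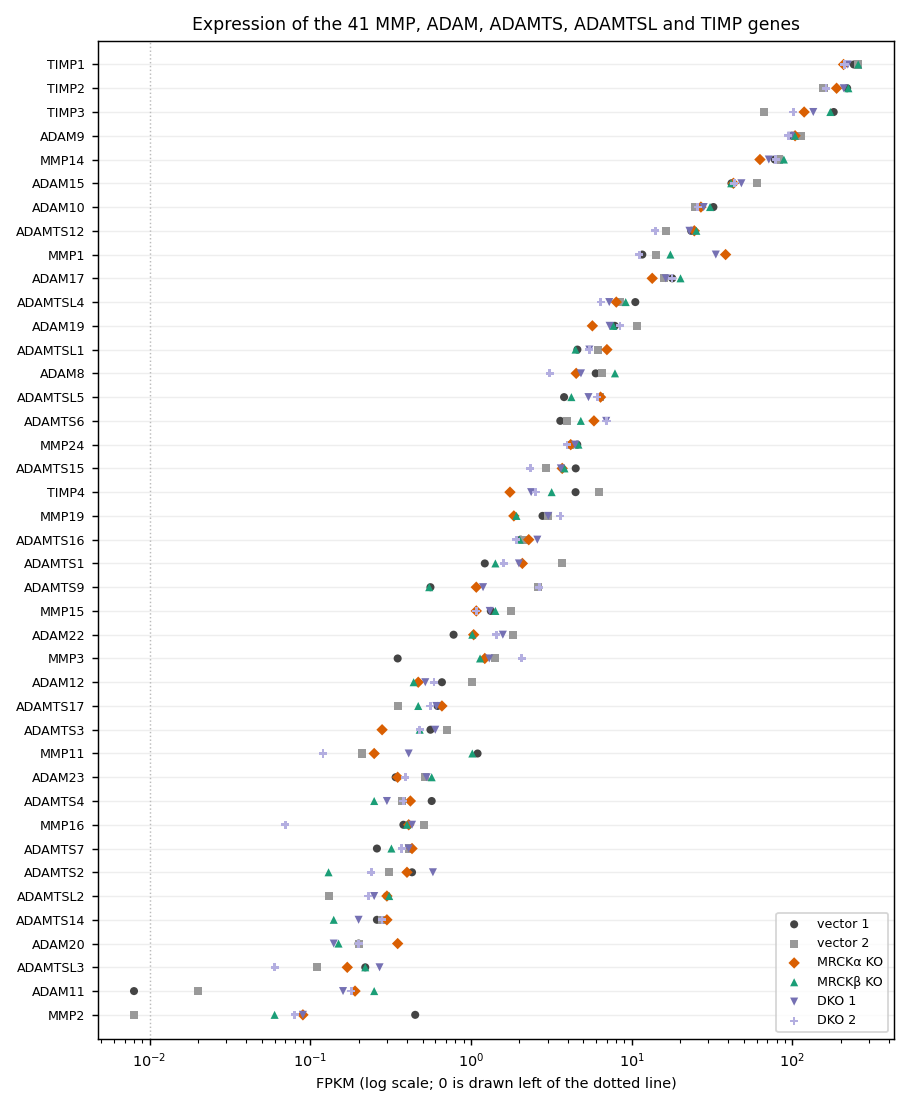
FPKM of the 41 reported members in the 6 libraries (horizontal log axis, 1 row per gene, ordered by mean FPKM, 1 symbol per library; values of 0 are drawn left of the dotted line). TIMP1, TIMP2 and TIMP3 lie at the top above 60 FPKM in every library, and 15 genes have a mean below 1 FPKM.

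The DKO comparison asks whether loss of both kinases changed the RNA of these genes, and it is the only comparison with replicates on both sides. No member passed the test. ADAMTS6 had the clearest difference upward and TIMP4 and ADAM8 downward, but none of these passed the adjustment over all genes. By edgeR's quasi-likelihood test on 39 members with enough counts, 0 passed an adjusted p of 0.05, as did 0 of all 13123 genes tested (0%), and DESeq2 called 0 members as well. At an unadjusted p under 0.05 there were 3 of 39 members, where the background over all genes was 2.39% (1.36% higher and 1.02% lower, with 1 and 2 members). DESeq2 gave 2 such members, for which no share of all genes is given. The count became 5 of 40 without DKO 1, against 2.50% of all genes in that fit. It became 8 of 38 without vector 1 and 8 of 40 without vector 2, against 8.60% and 5.96% of all genes. Of the 39 tested members 12 were fitted higher in DKO and 27 lower, against 49.3% higher and 50.7% lower among all genes, with a median log2 fold change of -0.12 for members and -0.00 for all genes. For 36 of the 39 the 95% interval included 0. In bulk RNA of a mixed population, fewer expressing cells and less RNA per cell cannot be told apart.

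In counts scaled to library size (CPM), 1 of the 39 tested members, ADAMTS6, lay above both vector libraries in both DKO libraries, where 14.4% of all genes tested did. Below both vector libraries in both DKO libraries were 9 of the tested members, TIMP1, TIMP4, ADAM8, ADAM9, ADAM12, ADAMTS4, ADAMTSL4, MMP14 and MMP15, against 14.6% of all genes tested. In FPKM the groups overlapped for ADAMTS4 and MMP14. ADAM11 and MMP2 were not tested because too few libraries held enough counts. Of these, ADAM11 also lay above, with 0 and 1 count in vector and 8 and 9 in DKO, but it reached 10 counts only in MRCKβ KO. Among the members under 10 counts, MMP8, MMP13, MMP25, ADAM32 and ADAMTS20 also lay above and MMP17 lay below.

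**Figure D2:**
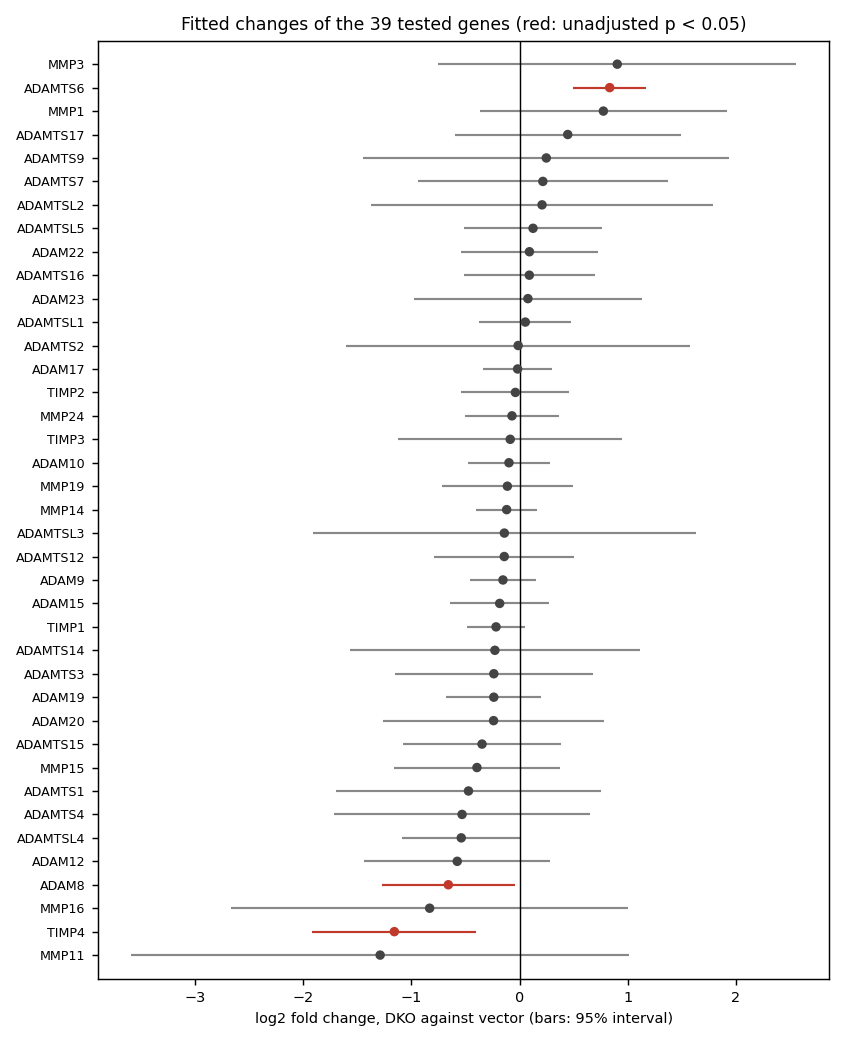
Fitted log2 fold change of DKO (n = 2) against vector (n = 2) for the 39 tested members (horizontal axis, log2; 1 row per gene; points are edgeR estimates and bars 95% intervals; red marks an unadjusted p under 0.05). The bars of ADAMTS6, TIMP4 and ADAM8 stand clear of 0, and the other 36 cross it.

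The 4 inhibitors were all fitted lower in DKO, by log2 values of -0.04 to -1.16, though TIMP3 turned to 0.089 with limma and TIMP2 to 0.22 without vector 1 and 0.14 without DKO 2, and 0 passed the adjusted threshold. Values of a gene are given from here on in the order vector 1, vector 2, MRCKα KO, MRCKβ KO, DKO 1 and DKO 2. TIMP4, an inhibitor of restricted tissue distribution, had FPKM values of 4.48, 6.30, 1.75, 3.18, 2.37 and 2.53, from 79, 108, 30, 56, 41 and 44 counts. All 4 knockout libraries lay below both vector libraries, and MRCKα KO was lowest. The DKO mean was 2.45 ± 0.113 FPKM (SD, n = 2) against 5.39 ± 1.29 FPKM in vector (SD, n = 2), a log2 fold change of -1.16 ± 0.31 (SE; 95% interval -1.92 to -0.40), with unadjusted p = 0.00939 and adjusted p = 0.9996 in the edgeR fit. Leaving out any 1 library gave log2 values between -1.39 and -0.89. TIMP4 (GENCODE v29, chr3:12153051-12159351, minus strand) lies inside SYN2 on the other strand and shares an exon with it, and SYN2 was listed with 4 to 13 counts.

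TIMP1, a broad inhibitor of secreted MMPs, was listed at 242, 256, 209, 257, 222 and 211 FPKM. MRCKα KO and both DKO libraries lay below the vector libraries and MRCKβ KO at the level of vector 2. In DKO the log2 fold change was -0.22 ± 0.11 (SE), with unadjusted p = 0.0988 by edgeR. TIMP2, which also helps MMP14 to activate MMP2, had 220, 157, 189, 224, 209 and 162 FPKM, and the groups overlapped. Its log2 fold change was -0.04 ± 0.21 (SE).

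TIMP3, which stays bound to the matrix and inhibits ADAM17 and several ADAMTSs, had 181, 67.0, 119, 173, 135 and 102 FPKM. The vector libraries were the highest and the lowest of the 6, and the other 4 lay between them. Its log2 fold change in DKO was -0.09 ± 0.43 (SE), but 0.80 without vector 1 and -0.63 without vector 2, with unadjusted p of 0.00506 and 0.0114 by edgeR where the lone vector library was assumed to vary like the DKO pair. The summed fibroblast markers were also highest in vector 1 and MRCKβ KO, the libraries with the most TIMP3. PDGFRB, with 363, 83, 130, 281, 191 and 69 counts, gave MRCKβ KO this place, while its collagen markers COL1A1, COL1A2 and COL3A1 had 129, 3 and 11 counts, below those of DKO 1 with 134, 8 and 15. The part of these markers in the TIMP3 values was not tested. TIMP3 (chr22:32801701-32863043, plus strand) lies inside SYN3 on the other strand without a shared exon in GENCODE. SYN3, a synapsin gene, was listed at 30.1 to 44.3 FPKM. Whether the libraries keep strand is not stated, so reads of such pairs cannot be told apart where they overlap, and 16 reported members share an exon with a gene on the other strand.

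**Figure D3:**
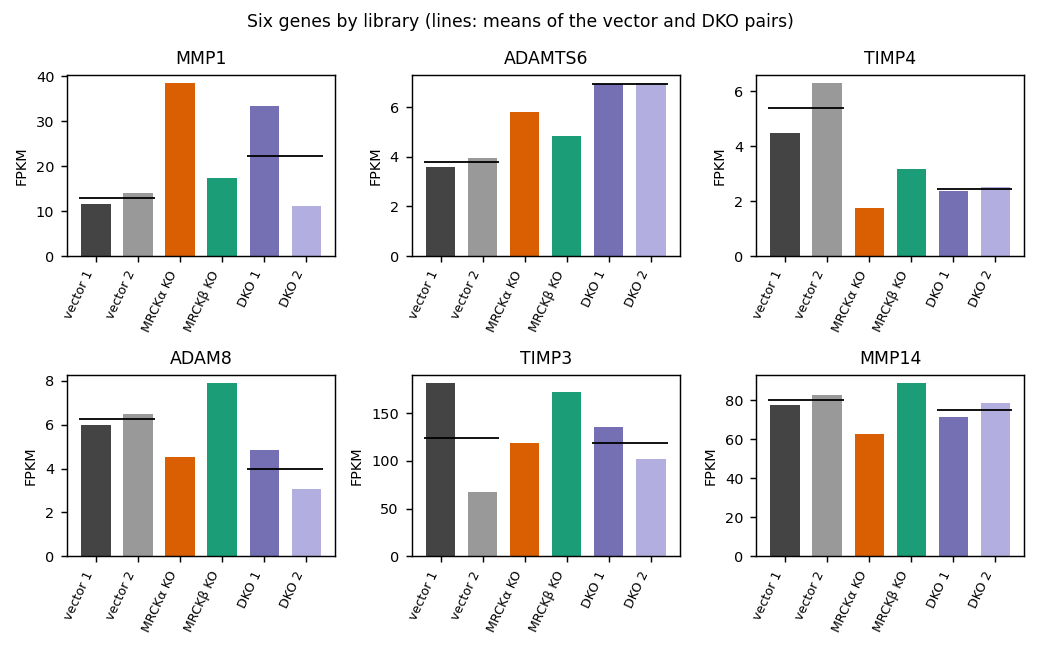
FPKM of MMP1, ADAMTS6, TIMP4, ADAM8, TIMP3 and MMP14 in each library (vertical axes, linear from 0; bars are single libraries and black lines the means of the 2 vector and the 2 DKO libraries). MMP1 is highest in MRCKα KO and DKO 1, ADAMTS6 is higher and TIMP4 lower in all 4 knockout libraries, and TIMP3 differs most between the vector libraries.

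MMP1 was the most abundant of the secreted MMPs. MMP1, the interstitial collagenase, cuts fibrillar collagens such as type I collagen. It was listed at 11.7, 14.1, 38.5, 17.4, 33.4 and 11.2 FPKM, from 258, 303, 828, 385, 726 and 244 counts. MRCKα KO and DKO 1 stood high, MRCKβ KO lay slightly above the vector libraries, and DKO 2 lay slightly below them. The DKO libraries were thus 2.99-fold apart in FPKM, and the groups overlapped. The DKO mean was 22.3 ± 15.7 FPKM (SD, n = 2) against 12.9 ± 1.73 FPKM (SD, n = 2), and the log2 fold change was 0.77 ± 0.47 (SE; 95% interval -0.36 to 1.91; unadjusted p = 0.148 by edgeR). Without DKO 1 it was -0.23 and without DKO 2 it was 1.36, so its direction rested on DKO 1.

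MMP3 (stromelysin 1), which cuts many matrix proteins and can activate MMP1, lies on chromosome 11 like MMP1, also on the minus strand. The lowest coordinates of the 2 genes are 45881 bases apart. Its counts were low, at 7, 28, 24, 23, 25.9 and 41.3, or 0.35, 1.42, 1.22, 1.14, 1.30 and 2.07 FPKM. Vector 1 was lowest and DKO 2 highest, the opposite order of the DKO pair to MMP1. The vector libraries were 4.06-fold apart, and the log2 fold change of 0.90 ± 0.68 (SE) had a p of 0.232 by edgeR. MMP1 and MMP3 each share an exon with WTAPP1 on the other strand.

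MMP11 (stromelysin 3), often made by the fibroblasts around tumours, had 27, 5, 6, 25, 10 and 3 counts, or 1.10, 0.21, 0.25, 1.02, 0.41 and 0.12 FPKM. Vector 1 and MRCKβ KO stood high as they did in TIMP3. Its log2 fold change in DKO was -1.29 ± 0.95 (SE), and the vector libraries were 5.24-fold apart. MMP2, a gelatinase, had 17 counts in vector 1, 0 in vector 2 and 2 or 3 in each knockout library (0.45, 0, 0.09, 0.06, 0.09 and 0.08 FPKM). It passed the limit of 10 counts only through vector 1. Of the fibroblast markers, COL1A2 had 49, 6, 6, 3, 8 and 2 counts and COL3A1 had 48, 1, 13, 11, 15 and 11, high in vector 1 like MMP2 but not in MRCKβ KO, where MMP11 also stood high. COL1A1 had 183, 127, 115, 129, 134 and 145 counts, PDGFRB is given above, and DCN, LUM, PDGFRA and POSTN had at most 6. The part of these markers in the MMP2 and MMP11 values was not tested. MMP19, a secreted protease of basement membranes, had 2.79, 3.02, 1.85, 1.92, 3.03 and 3.60 FPKM. In FPKM both single knockouts lay below the vector libraries and the DKO libraries did not. Its counts were 93.2, 99.45, 61.4, 67.7, 80.85 and 98.7, where DKO 1 also lay below the vector libraries. The length listed for the gene was 3125 and 3169 bases in vector and 2548 and 2605 in DKO. On counts, the log2 fold change of MMP19 in DKO was -0.11 ± 0.25 (SE).

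The 4 tested membrane-anchored MMPs were fitted lower in DKO, though MMP24 turned to 0.015 without DKO 2, with a median log2 fold change of -0.26 and no unadjusted p below 0.259 by edgeR. MMP14, the chief pericellular collagenase and an activator of MMP2, had 77.8, 83.0, 62.9, 88.7, 71.5 and 78.7 FPKM. MRCKα KO was lowest and MRCKβ KO highest. In FPKM DKO 2 lay above vector 1, so the groups overlapped, though they did not in CPM. In DKO its log2 fold change was -0.12 ± 0.12 (SE; 95% interval -0.40 to 0.16). MMP24 had 4.59, 4.16, 4.18, 4.67, 4.45 and 3.96 FPKM, with a log2 fold change of -0.07 ± 0.18 (SE). MMP15 had 1.33, 1.78, 1.08, 1.42, 1.31 and 1.08 FPKM, with a log2 fold change of -0.39 ± 0.32 (SE). Both are relatives of MMP14 at the cell surface. MMP16, another of these, had 26, 34, 27, 27, 29 and 5 counts, or 0.38, 0.51, 0.41, 0.40, 0.43 and 0.07 FPKM. DKO 2 alone was low, the DKO libraries were 6.14-fold apart, and the log2 fold change of -0.83 ± 0.76 (SE) became -0.06 without DKO 2.

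The balance of inhibitor to protease RNA differed as much between the vector libraries as elsewhere. Summed FPKM of the TIMPs was 6.40, 4.46, 4.64, 5.59, 4.87 and 4.68 times that of the MMPs, and the knockout libraries all lay between the vector libraries. MMP14 made up 77.0%, 76.2%, 56.4%, 75.5%, 61.3% and 77.1% of the summed MMP FPKM. MMP1 made up 11.5%, 12.9%, 34.5%, 14.9%, 28.7% and 10.95% of it. MRCKα KO and DKO 1 had the largest share of MMP1 and the smallest of MMP14.

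All 8 tested ADAMs with a catalytic site were fitted lower in DKO, by log2 values of -0.02 to -0.66, though ADAM17 turned to 0.0026 when scaled by library size only, ADAM10 to 0.11 without vector 1 and ADAM15 to 0.10 without vector 2. ADAM17 also turned to 0.057 without vector 1 and to 0.026 without DKO 1. Among them ADAM8 had an unadjusted p under 0.05. ADAM8, a sheddase also found on leukocytes, had 5.98, 6.51, 4.52, 7.88, 4.84 and 3.09 FPKM, from 208, 221, 156, 279, 167 and 108 counts. MRCKα KO and both DKO libraries lay below the vector libraries and MRCKβ KO above them. The DKO mean was 3.97 ± 1.24 FPKM (SD, n = 2) against 6.25 ± 0.375 FPKM (SD, n = 2), and the log2 fold change was -0.66 ± 0.25 (SE; 95% interval -1.27 to -0.04), with unadjusted p = 0.0396 and adjusted p = 0.9996 by edgeR. Without DKO 1 it was -1.02 and without DKO 2 it was -0.37, where the unadjusted p was 0.229 by edgeR. Without vector 2 the log2 value was -0.59 with an unadjusted p of 0.0977 by edgeR. Summed leukocyte markers were 9.49, 9.51, 7.98, 8.86, 7.52 and 8.64 FPKM. LYZ had the most counts of them in every library, at 121, 138, 97.0, 97.8, 88.5 and 118. PTPRC had 23.0, 7.05, 33.55, 34.3, 20 and 10 counts and CD14 had 14, 2, 7, 20, 16 and 5. CSF1R had 16, 7, 4, 24, 13 and 13 counts, ITGAM 0 to 9 and CD3E 0 or 1. The part of these markers in the ADAM8 values was not tested.

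The abundant sheddases differed little in DKO. ADAM9, which cuts several membrane proteins, had 99.5, 114, 104, 104, 98.6 and 94.7 FPKM. ADAM10, the main sheddase of Notch receptors and cadherins, had 32.3, 24.7, 27.0, 30.8, 28.1 and 25.8 FPKM. ADAM17, which releases tumour necrosis factor and ligands of the EGF receptor, had 17.9, 16.0, 13.4, 20.2, 16.3 and 17.9 FPKM. For these 3 genes the log2 fold changes in DKO were -0.15 ± 0.13, -0.10 ± 0.16 and -0.02 ± 0.13 (SE), and only ADAM9 was without overlap of the groups. ADAM15, a surface protein with an integrin-binding site, had 41.8, 60.0, 43.0, 41.7, 48.2 and 43.6 FPKM, and vector 2 alone stood high. ADAM19, which can cut neuregulins, had 7.86, 10.8, 5.70, 7.70, 7.30 and 8.46 FPKM, with MRCKα KO lowest. Their log2 fold changes were -0.18 ± 0.19 and -0.24 ± 0.18 (SE). ADAM12 lay below both vector libraries in all 4 knockout libraries, with 54, 84, 31, 35, 44 and 50 counts, and its log2 fold change in DKO was -0.58 ± 0.35 (SE). ADAM20 had 20.2 to 48.4 counts and was highest in MRCKα KO.

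ADAM11, ADAM22 and ADAM23 lack a working catalytic site and are best known as adhesion partners in neurons. ADAM22 had 0.78, 1.82, 1.04, 1.02, 1.58 and 1.44 FPKM, which set the vector libraries 2.33-fold apart. In CPM they were only 1.22-fold apart, since its counts were 75, 88, 82, 78, 92 and 84. The length listed for the gene went from 8922 bases in vector 1 to 4638 in vector 2. Its log2 fold change in DKO, on counts, was 0.09 ± 0.26 (SE). ADAM23 had 23 to 38 counts and a log2 fold change of 0.08 ± 0.44 (SE). ADAM11 had 0 and 1 count in the vector libraries and 8 to 13 counts in each knockout library. It passed the limit of 10 counts only through MRCKβ KO, with 13, so this contrast is not independent of how members were chosen. It is listed at 0 and 0.02 FPKM in vector and at 0.16 to 0.25 FPKM in the knockouts.

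ADAMTS6 had the smallest p of all members in DKO. This secreted protease is known for acting on fibrillin microfibrils. It had 3.60, 3.96, 5.83, 4.83, 6.95 and 6.98 FPKM, from 225, 224, 328, 284, 403 and 407 counts. All 4 knockout libraries lay above both vector libraries, both DKO libraries above both single knockouts, and replicates of a group were at most 1.10-fold apart. The DKO mean was 6.97 ± 0.021 FPKM (SD, n = 2) against 3.78 ± 0.255 FPKM (SD, n = 2). The log2 fold change was 0.83 ± 0.14 (SE; 95% interval 0.49 to 1.17), a fold of 1.78, with unadjusted p = 0.000859 and adjusted p = 0.9996 in the edgeR fit. Leaving out any 1 library gave log2 values between 0.81 and 0.85. ADAMTS6 lies on chr5:65148736-65481920 on the minus strand and shares no exon with another gene in GENCODE v29. It was below the 2-fold rule used by the study.

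ADAMTS12, the most abundant ADAMTS and a protease of cartilage matrix proteins, had 23.5, 16.5, 24.6, 25.3, 22.9 and 14.0 FPKM. Vector 2 and DKO 2 stood low together, and its log2 fold change was -0.14 ± 0.27 (SE). ADAMTS16 had 1.92 to 2.59 FPKM with overlapping groups, and ADAMTS7 and ADAMTS17 stayed under 1 FPKM. Of these 5 ADAMTSs, ADAMTS6, ADAMTS7, ADAMTS12, ADAMTS16 and ADAMTS17, 4 were fitted higher in DKO and 1 lower.

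The 4 tested ADAMTSs that cut proteoglycans such as aggrecan and versican were ADAMTS1, ADAMTS4, ADAMTS9 and ADAMTS15, and 1 was fitted higher and 3 lower. ADAMTS1 had 61, 180, 102, 71, 98 and 79 counts, or 1.22, 3.69, 2.09, 1.42, 1.99 and 1.60 FPKM. ADAMTS9 had 44, 202, 83, 43, 92 and 207 counts, or 0.56, 2.63, 1.08, 0.55, 1.19 and 2.66 FPKM. In both genes vector 1 lay with MRCKβ KO at the low end and vector 2 at or near the high end, the reverse of TIMP3. The log2 fold changes in DKO were -0.47 ± 0.51 (SE) for ADAMTS1 and 0.25 ± 0.70 (SE) for ADAMTS9, and each changed sign when a vector library was left out. ADAMTS15 had 2.34 to 4.49 FPKM with overlapping groups, and ADAMTS4 had 11.1 to 26 counts.

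The procollagen N-proteinases ADAMTS2, ADAMTS3 and ADAMTS14, which trim fibrillar procollagens, were all weakly expressed and fitted lower in DKO, by log2 values of -0.01 to -0.24, though ADAMTS2 turned to 0.0056 when scaled by library size only, to 0.47 without DKO 2 and to 0.28 without vector 1. ADAMTS3 had 35, 43, 17, 30, 37 and 30 counts, or 0.56, 0.71, 0.28, 0.48, 0.60 and 0.48 FPKM, and MRCKα KO was lowest. ADAMTS2 had 11.7, 7.99, 9.35, 3.03, 13.8 and 6.32 counts, or 0.43, 0.31, 0.40, 0.13, 0.58 and 0.24 FPKM, and MRCKβ KO was lowest. ADAMTS14 had at most 12.0 counts.

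Of the 5 ADAMTS-like genes, whose products bind microfibrils and other matrix proteins, 3 were fitted higher and 2 lower in DKO. ADAMTSL4, which supports fibrillin fibres in the eye, had 10.6, 8.41, 8.03, 9.19, 7.26 and 6.41 FPKM. In FPKM both DKO libraries lay below the other 4. In counts, at 478, 321, 302, 385, 310 and 245, DKO 1 lay slightly above MRCKα KO. The length listed for the gene was 4057 bases in DKO 1 and 3609 in MRCKα KO. The log2 fold change of ADAMTSL4 in DKO was -0.54 ± 0.23 (SE; 95% interval -1.08 to 0.01), with unadjusted p = 0.0523 by edgeR. ADAMTSL1 had 4.60, 6.16, 7.02, 4.48, 5.46 and 5.46 FPKM and ADAMTSL5 had 3.80, 6.32, 6.41, 4.22, 5.39 and 6.13 FPKM. In both, MRCKα KO was highest, vector 1 and MRCKβ KO were lowest, and the log2 fold changes in DKO were 0.05 ± 0.17 and 0.12 ± 0.26 (SE). ADAMTSL2 had 0.30, 0.13, 0.30, 0.31, 0.25 and 0.23 FPKM, and ADAMTSL3 had 0.22, 0.11, 0.17, 0.22, 0.27 and 0.06 FPKM, from at most 16 counts. Neither had an interval that excluded 0.

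Each single knockout had 1 library, so its difference from vector has no replicate check and no p. The study counted a gene as changed at a log2 FPKM ratio of at least 1 or at most -1, after leaving out genes more than 2-fold apart between replicates. It also left out poorly expressed genes, but states no limit, so none is applied to the counts here. In MRCKα KO 4 of 35 members with a usable ratio were past this rule, against 4.42% of all genes, with 1 higher against 1.94% and 3 lower against 2.48%. MMP1 was higher, with a log2 FPKM ratio of 1.58, or 2.99-fold. TIMP4 was lower with -1.62, ADAMTS3 with -1.18, and MMP25, the fourth, had 7 and 4.43 counts in vector and 1 in MRCKα KO. With genes under a mean FPKM of 1 left out, 2 members remained past the rule, MMP1 and TIMP4, against 1.44% of all genes. The 95% counting interval of the log2 count ratio was 1.41 to 1.72 for MMP1, -2.25 to -1.08 for TIMP4 and -2.05 to -0.43 for ADAMTS3, and such intervals cover counting error only. The count of 4 became 9 without vector 1 and 9 without vector 2, where no filter on the vector replicates applies and the share of all genes was 10.7% and 9.92%. MMP1 and TIMP4 were past the rule each time.

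In MRCKβ KO 1 of 35 members was past the rule, against 3.53% of all genes, with 0 higher against 1.68% and 1 lower against 1.84%. This was ADAMTS2 with a log2 FPKM ratio of -1.51 from 3.03 counts. With genes under a mean FPKM of 1 left out the count was 0, against 0.828% of all genes. The count became 10 without vector 1 and 7 without vector 2, against 11.1% and 8.18% of all genes. ADAMTS9, left out by the rule, had a log2 FPKM ratio of -1.54. In DKO 1 of 31 members was past it, TIMP4 with a log2 FPKM ratio of -1.14, against 1.78% of all genes (1.02% higher and 0.759% lower). The count was 4 without vector 1 and 2 without vector 2, against 5.12% and 5.26% of all genes. It was 4 without DKO 1 and 2 without DKO 2, against 4.24% and 3.85%. TIMP4 was past the rule in each of these settings but the one without vector 2. The 3 comparisons share the vector libraries, so their values are given side by side only. For MRCKα KO, MRCKβ KO and DKO in this order, MMP1 had log2 FPKM ratios of 1.58, 0.44 and 0.79. For TIMP4 they were -1.62, -0.76 and -1.14 and for ADAMTS6 0.63, 0.35 and 0.88. For ADAM8 they were -0.47, 0.34 and -0.66, and for MMP14 they were -0.35, 0.14 and -0.10. The counting intervals of ADAMTS6 were 0.34 to 0.76 in MRCKα KO and 0.10 to 0.53 in MRCKβ KO.

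In MRCKα KO 8 of 40 members lay above both vector libraries in CPM and 12 below, where 30.1% and 29.2% of all genes did. In MRCKβ KO 11 of 41 lay above and 12 below, where 29.9% and 29.4% of all genes did.

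**Figure D4:**
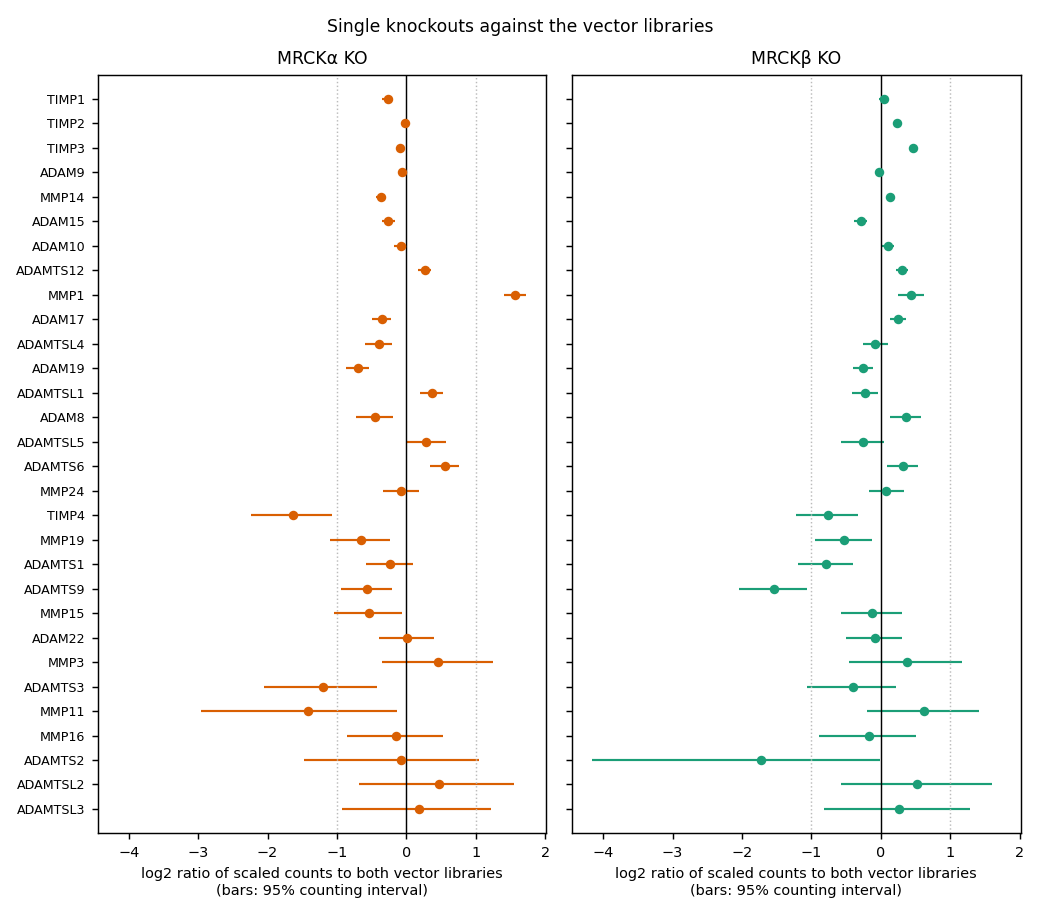
log2 ratio of scaled counts in MRCKα KO (left) and MRCKβ KO (right) to the pooled vector libraries for 30 members (horizontal axes, log2; points are ratios and bars 95% counting intervals; dotted lines mark 2-fold). In MRCKα KO MMP1 stands right of 1, and TIMP4, MMP11 and ADAMTS3 stand left of -1. In MRCKβ KO the bars of ADAMTS9 and ADAMTS2 reach farthest left.

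Several members differed more between replicates than between groups. Among members with 10 counts in a vector library, 8 of 40 were over 2-fold apart in FPKM between the vector libraries, against 8.57% of all such genes. They were TIMP3, ADAMTS1, ADAMTS9, ADAM22, MMP2, MMP3, MMP11 and ADAMTSL2. In CPM 7 of 40 were, against 8.55%, since ADAM22 was not among them. Between the DKO libraries 6 of 39 were over 2-fold apart, against 5.46% of all such genes. These were MMP1, MMP11, MMP16, ADAMTS9, ADAMTS2 and ADAMTSL3. In CPM 6 of 39 were as well, against 5.51%. The rule of the study leaves such genes out of an average. Of the 39 tested members 20 changed the sign of the fitted log2 fold change when 1 library was left out. No share of all genes is given for this, so it is not read as particular to the members.

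**Figure D5:**
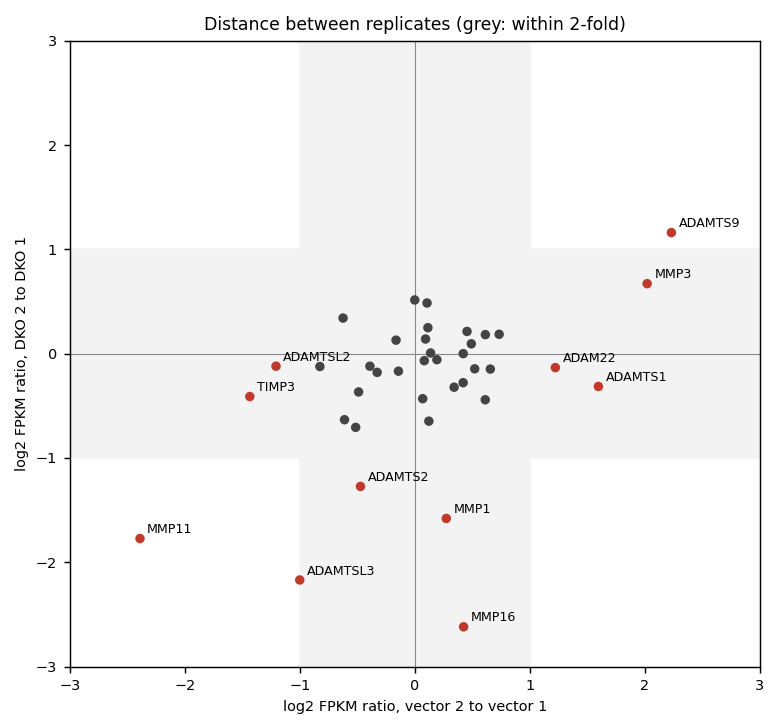
log2 FPKM ratio of vector 2 to vector 1 (horizontal axis) and of DKO 2 to DKO 1 (vertical axis) for the 39 members with FPKM above 0 in all 4 libraries (1 point per gene; grey bands mark 2-fold; red points lie outside a band). MMP1 and MMP16 part only the DKO libraries, TIMP3 and ADAMTS1 only the vector libraries, and ADAMTS9 and MMP11 part both pairs.

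Genes that act with this family were followed in 6 lists of 71 genes, of which 70 were in the table, 62 had 10 counts and 58 were tested in DKO. The lists covered the plasminogen system, regulators of MMPs, maturation of ADAMs, growth factors and receptors that are shed, other extracellular proteases, and factors that drive MMP transcription. By edgeR 0 of 58 passed the adjusted threshold, 3 had an unadjusted p under 0.05 (2.39% of all genes), 25 were fitted higher and 33 lower (49.3% and 50.7% of all genes). The most abundant gene of each list in FPKM was ANXA2 (mean 1294), a receptor for plasminogen activation, BSG (501), an inducer of MMPs, TSPAN14 (39.6), a tetraspanin partner of ADAM10, TNFRSF1A (54.7), a receptor shed by ADAM17, CTSD (241), a lysosomal protease, and FOSL1 (253), a subunit of AP-1.

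JUNB, another AP-1 subunit, had 28.0, 22.1, 30.7, 40.3, 37.3 and 44.4 FPKM. All 4 knockout libraries lay above both vector libraries, and its log2 fold change in DKO was 0.68 ± 0.17 (SE; unadjusted p = 0.00633 by edgeR). EREG, an EGF receptor ligand released by ADAM17, had 4.95, 4.55, 3.54, 6.42, 3.42 and 2.75 FPKM, with MRCKβ KO above and the other 3 knockout libraries below the vector libraries. Its log2 fold change was -0.64 ± 0.19 (SE; unadjusted p = 0.0155 by edgeR). FRMD8, which stabilises the complex that matures ADAM17, had 7.95, 7.76, 6.38, 6.62, 6.04 and 6.06 FPKM, below vector in all 4 knockout libraries. Its log2 fold change was -0.40 ± 0.15 (SE; unadjusted p = 0.0338 by edgeR). The adjusted p of all 3 was 0.9996 by edgeR.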

How the data were processed

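RNA of 6 libraries was sequenced by BGI as single-end reads of 50 bases. The authors deposited expected counts, which are estimated reads per gene and not normalized, and FPKM values, which BGI scaled by transcript length and library total. The processing notes of the submitters name HISAT, Bowtie2 and RSEM with GRCh38.p11, without versions or roles, and strandedness is not given in the sources used here. Samples were grouped by the genotype in their labels. The study states that the vector libraries came from separate transductions and the DKO libraries from different guide sets. Which library number marks which is not given. The p-values measure the spread between these libraries, which in DKO includes any difference between the guide sets.

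Members were all genes with the family names given in the report, and their role classes and the 6 lists of related genes were written by hand. Members and lists were chosen with earlier results of these data known. Values in every library are given for MMP1 and ADAMTS6, for every TIMP, for the 5 MMPs, 5 ADAMs and 5 ADAMTS or ADAMTSL genes of highest mean FPKM, for members with an unadjusted p under 0.05 in DKO or past the 2-fold rule, and for those over 2-fold apart between replicates, with at least 10 counts. Values of other members were chosen after they were seen. Of related genes, those with an unadjusted p under 0.05 and the most abundant of each list are named.

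DKO was compared with vector on rounded expected counts with edgeR 4.0.16 (R 4.3.3; filterByExpr, TMM, glmQLFit, glmQLFTest, Benjamini-Hochberg over all genes tested, threshold 0.05), which was tested on simulated data. The 95% intervals come from the t distribution of that fit. Single knockouts have 1 library each and no test, and their 95% counting intervals are exact conditional binomial intervals. A count of 0 allows up to 3 counts, or 2.8e-05% to 2.9e-05% of a library. Reads carry no molecular identifiers, so these intervals and limits cover counting error only. Positions and overlaps are from GENCODE v29 on GRCh38. Alternatives were DESeq2 1.42.0, other scalings and filters, a fit with the replicate number as a block, a fit of all 6 libraries, limma 3.58.1 on log2-transformed FPKM with a pseudocount of 0.1 or 1 (mean FPKM at or above 0.5), pseudocounts and filters for the 2-fold rule, and each replicate left out in turn, where the lone library of a group was assumed to vary like the other group.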

Additional observations from a re-analysis of the deposited data

How the results depend on the processing

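The single knockouts, with 1 library each, were given no test, and in DKO 0 members passed an adjusted p of 0.05 under every alternative run, DESeq2 included. At an unadjusted p under 0.05 there were 3 members by edgeR, against 2.39% of all genes, and 2 with DESeq2 and 2 and 4 with limma. The share of all genes is not given for DESeq2 and limma, so their counts are not read as a result about the members. The median log2 fold change of members was -0.12, and -0.21 to -0.067 when 1 library was left out. The replicate numbers tie libraries to no batch or day. Deviations of vector 1 and DKO 1 from their group means correlated at 0.302 across 13123 genes, which are not independent replicates. With a replicate block in edgeR, 0 members passed the adjusted p and 4 an unadjusted p under 0.05, again without a share of all genes.

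Past the 2-fold rule were 4 members in MRCKα KO, and 2 with a pseudocount of 1, 9 without the replicate filter, 2 with genes under a mean FPKM of 1 left out, and 9 without either vector library. In MRCKβ KO the count of 1 became 0, 7 and 0 under these settings in turn, 2 with CPM in place of FPKM, and 7 to 10 without a vector library. In DKO the count of 1 became 0 with a pseudocount of 1, 8 without the replicate filter and 2 to 4 when a library was left out. The share of all genes is not given for the pseudocount, the CPM and the missing replicate filter. Counts under these settings are therefore not read as particular to the members. The cause of these changes was not tested.

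Signs of small log2 fold changes in DKO turned. TIMP3 was 0.089 and 0.087 with limma at pseudocounts of 0.1 and 1 and 0.065 with the replicate block. ADAM17 was 0.0026 with library size only and 0.0118 and 0.0112 with limma at these pseudocounts. MMP19 was 0.18 and 0.14 with limma likewise, and ADAMTS2 was 0.0056 with library size only. When 1 library was left out, the log2 fold change of TIMP2 ran from -0.26 to 0.22, of TIMP3 from -0.63 to 0.80, of ADAM15 from -0.42 to 0.10, of ADAM10 from -0.28 to 0.11, of ADAMTS12 from -0.51 to 0.16, of MMP1 from -0.23 to 1.36, of ADAM17 from -0.089 to 0.057, of ADAMTSL1 from -0.15 to 0.28, of ADAMTSL5 from -0.16 to 0.48, of MMP24 from -0.17 to 0.015, of MMP19 from -0.26 to 0.013, of ADAMTS1 from -1.06 to 0.54, of ADAMTS9 from -0.48 to 1.76, of ADAM22 from -0.041 to 0.24, of ADAMTS2 from -0.75 to 0.47, of ADAMTSL2 from -0.30 to 1.01 and of ADAMTSL3 from -1.21 to 0.47. ADAMTS6, TIMP4 and ADAM8 kept their direction under every alternative run.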
